A study of Caenorhabditis elegans with 44 samples.

Results

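The microRNA miR-57 of *C. elegans* comes from a single hairpin gene, mir-57, and 2 of the 437 mature strands in the count table carried its name, miR-57-5p and miR-57-3p. Both were members, and both were among the 272 strands that passed a filter of at least 10 counts on average. The animals were wild-type N2 worms (genotype WT, no treatment), synchronized as first-stage (L1) larvae, plated on food at 25 °C and harvested every hour from 5 h to 48 h. By the description of the study the latest libraries came from adults. The 44 small RNA libraries held 1 library per hour, so there were no replicates, and each p-value below measures the scatter of hourly libraries around a fitted curve within this single time course. RNA came from whole worms collected in bulk, so fewer cells that express miR-57 and less miR-57 per cell cannot be told apart.

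A microRNA is cut from a hairpin precursor as a duplex of a 5p and a 3p strand. One of them, the guide, is usually kept by an Argonaute protein and pairs with target messages, while the other, the passenger, is usually degraded. In the *C. elegans* embryo, mir-57 is known for its part in posterior cell fates, where it acts in a negative loop with nob-1, a posterior Hox gene. Larval development of the worm proceeds through rhythmic molts, and transcription of many worm genes rises and falls once in each molting cycle.

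In the WBcel235 annotation, which is not the ce10 build used by the authors, mir-57 (WBGene00003285) lay on chromosome II from 7850499 to 7850597 on the minus strand. The annotated precursor was 99 bases long, with a 5p strand of 24 bases at 7850559 to 7850582 and a 3p strand of 22 bases at 7850522 to 7850543. The gene was not inside a protein-coding gene. The nearest protein-coding genes were acr-7, a subunit of an acetylcholine receptor, 701 bp away, and T09A5.5, 2260 bp away on the other side. The closest other microRNA gene, mir-85, was 542955 bp away, so mir-57 had no clustered partner. An annotated non-coding RNA, T09A5.19, overlapped the end of the precursor on the opposite strand and covered neither mature strand.

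Library totals had a median of 10678292 counts and ranged from 1669246 at 38 h to 14672735 at 31 h, with 7059421 as the next lowest. Levels are given either as the share of all microRNA counts in a library or as normalised counts, for which each library was brought to the mean total of all libraries. Both are relative measures, so a gain of other strands lowers them without any loss of miR-57. The intervals given for single libraries describe counting error alone and hold no scatter between libraries. They treat PCR copies of a molecule as separate reads, so they can be too narrow even for counting error. They were narrow for miR-57-5p, which had 35639203 counts in all, and wide for miR-57-3p, which had 3916.

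The guide miR-57-5p started as 1 of the most abundant microRNAs and held a smaller share of the late libraries than of the early ones. Its share was 13.5% of counts at 5 h, 10.1% at 6 h and 11.6% at 7 h (Wilson 95% interval at 5 h, 13.4% to 13.5%). From 8 h to 14 h it stood at 12.5%, 11.7%, 11.4%, 11.7%, 11.2%, 9.79% and 12.1% in successive hours. Apart from the lower libraries of 6 h and 13 h, the share thus stayed above 11% until 14 h. From 15 h to 21 h the hourly shares were 10.6%, 9.09%, 8.55%, 9.25%, 8.77%, 7.46% and 8.89%. From 22 h to 28 h they were 8.93%, 8.32%, 7.78%, 7.29%, 7.30%, 7.65% and 7.23%. The ranges of these blocks overlapped, with 20 h as the lowest library of the former and 22 h as the highest of the latter. From 29 h to 35 h the shares were 6.98%, 6.64%, 6.77%, 6.51%, 6.53%, 6.37% and 5.81%. From 36 h to 42 h they were 5.96%, 5.67%, 5.41%, 4.99%, 4.43%, 4.59% and 4.17%. The share first dropped under 0.5 times its 5 h value, which is 6.73%, at 30 h and was last above it at 31 h. In the last 6 hours, 43 h to 48 h, it was 4.52%, 4.20%, 2.98%, 4.69%, 4.23% and 4.14%, and the library of 45 h was the lowest of all. The share went down in 28 of 43 hourly steps, and the value at 5 h was 3.25 times that at 48 h.

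**Figure D1:**
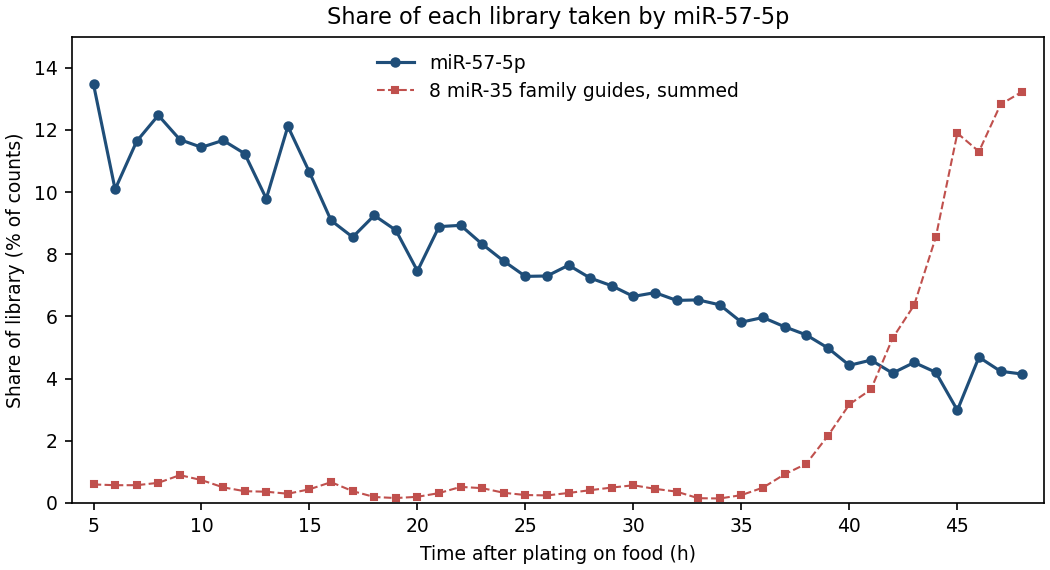
Share of each library, in percent of all microRNA counts (y axis), against hours after plating on food (x axis), for miR-57-5p (circles, solid line) and for the 8 miR-35 family guides summed (squares, dashed line), 1 library per hour. The share of miR-57-5p declines between 5 h (13.5%) and 48 h (4.14%), while the miR-35 family stays under 1% until 37 h and then climbs to 13.2%.

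By rank, miR-57-5p was 2nd or 3rd in every library from 5 h to 24 h and among the first 5 in 33 libraries, those from 5 h to 37 h. From 38 h to 48 h it ranked between 6th and 11th, the last at 45 h. It was not the most abundant strand at any hour. The strands above it changed. At 5 h only miR-228-5p, known from glia and hypodermis, held a larger share (16.6%), whereas at 35 h miR-82-3p (13.9%), miR-72-5p (6.49%), miR-58a-3p (6.19%) and miR-228-5p (6.07%) were all above its 5.81%.

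The passenger miR-57-3p was rare and followed a wave-like course. It had 251 normalised counts at 5 h (95% Poisson interval 221 to 283), 184 at 6 h and 111 at 7 h. From 8 h to 14 h the hourly levels were 102, 119, 134, 152, 185, 239 and 187 normalised counts. After the initial drop, the strand thus climbed in every hour from 8 h to a peak at 13 h. From 15 h to 21 h the levels were 108, 91.8, 103, 99.8, 115, 118 and 110. From 22 h to 28 h they were 69.2, 66.3, 42.9, 78.1, 105, 134 and 88.5. The intervals of the trough at 24 h (31.3 to 57.4) and the peak at 27 h (113 to 157) do not overlap. Those of 16 h (74.7 to 112) and 20 h (94.3 to 145) do, and those of 31 h (31.7 to 54.0) and 34 h (54.0 to 86.0) meet. These hours were picked as local extremes of the same series, and the intervals leave out the scatter between libraries. From 29 h to 35 h the levels were 89.6, 53.5, 41.8, 44.3, 59.0, 68.6 and 58.5. From 36 h to 42 h they were 38.7, 54.1, 19.0, 29.9, 27.0, 30.8 and 41.2, of which the value at 38 h rested on 3 counts (3.92 to 55.5). The 5 lowest libraries for this passenger were those of 38 h to 41 h and of 43 h. From 43 h to 48 h it stood at 26.6, 36.2, 46.7, 51.0, 66.5 and 63.0, so the last libraries were again near the levels of 33 h to 35 h. As a share of the library, miR-57-3p ranged from 0.00237% at 5 h to 0.00018% at 38 h.

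**Figure D2:**
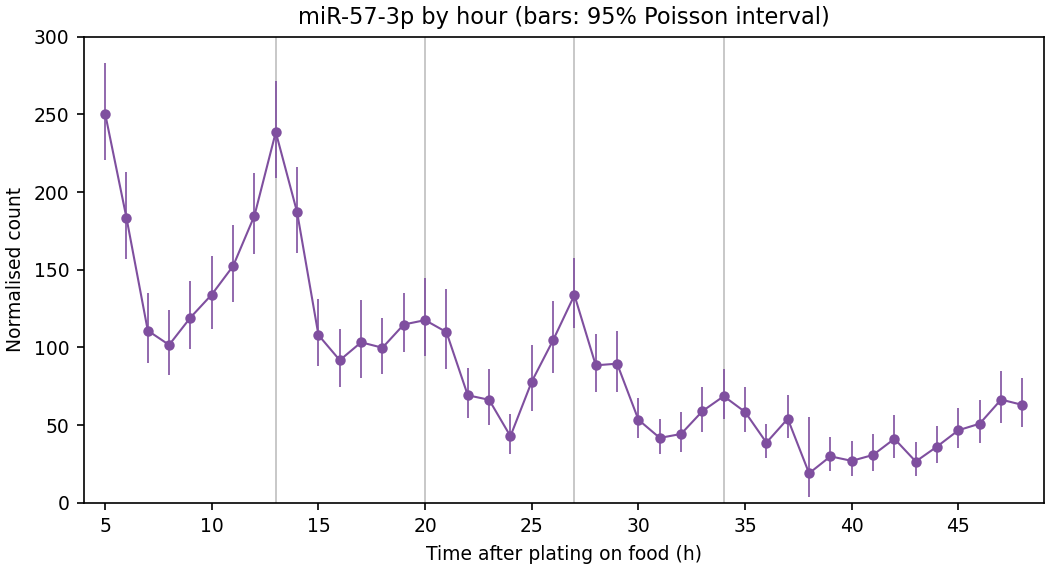
Normalised count of miR-57-3p (y axis) against hours after plating on food (x axis), 1 library per hour, with vertical bars for the 95% Poisson interval and grey lines at the local peaks of 13 h, 20 h, 27 h and 34 h. Peaks of 239, 118, 134 and 68.6 normalised counts stand above troughs of 91.8 at 16 h, 42.9 at 24 h and 41.8 at 31 h.

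Relative to the library totals, both strands fell through larval development. Over 8 h to 35 h the edgeR model, which had a linear term beside a cosine and a sine with a 7 h period, gave miR-57-5p a change of -1.03 ± 0.06 (SE) log2 units, a 2.04-fold drop (adjusted p = 3.1e-14). For miR-57-3p the change was -1.79 ± 0.18 log2 units, a 3.46-fold drop (adjusted p = 1.0e-09). A strand was called falling at an adjusted p under 0.05 with a change of at least 1 log2 unit, which 25.0% of the 272 strands met, so a fall by this measure was common. In either direction 52.9% of the strands were called. The median change of all strands was 0.06 log2 units. Of the 272 strands, 68 had a more negative change than miR-57-5p and 34 a more negative one than miR-57-3p. The size of the guide's drop lay next to the minimum, and its change was -0.98 without 8 h, -0.99 without 14 h and -0.97 without 35 h, all under 1 unit. With TMM factors it was -0.85, while the median of all strands was then 0.23. With the 5 most abundant strands left out of the totals it was -1.52, with a median of -0.43. Its adjusted p was at most 5.0e-06 under every alternative run.

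The guide fell at each of the 4 steps between blocks of hours, of which the last leads past 35 h, the end of the window fitted for the larval cycles. In a fit that compared successive blocks of 7 h, miR-57-5p fell by 0.36 ± 0.06 log2 units from 8 to 14 h to 15 to 21 h, by 0.20 ± 0.06 to 22 to 28 h, by 0.25 ± 0.06 to 29 to 35 h and by 0.38 ± 0.06 to 36 to 42 h (adjusted p = 1.0e-05, 0.00739, 0.000787 and 5.1e-06 in edgeR). Lower calls at an adjusted p under 0.05 made up 23.2%, 16.2%, 24.3% and 34.2% of all strands at these 4 steps. The last step took place while the median of all strands moved by -0.24. With TMM factors the steps to 22 to 28 h and to 36 to 42 h did not pass (-0.17 and -0.17, adjusted p = 0.0900 and 0.0776). Whether the steps differ in size from each other was not tested.

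The fitted steps of the passenger were larger and had wider errors, and their difference from those of the guide was not tested. The changes of miR-57-3p over the same blocks were -0.56 ± 0.18, -0.39 ± 0.18, -0.47 ± 0.18 and -0.71 ± 0.19 log2 units (adjusted p = 0.00968, 0.0862, 0.0363 and 0.00261), so all but the second passed in edgeR. The third step did not pass when the library of 25, 26, 27, 31, 32, 33, 34 or 35 h was left out (adjusted p = 0.0568, 0.0755, 0.103, 0.0657, 0.0714, 0.0603, 0.0579 and 0.0697). The second passed without 27 h (0.0331) or 37 h (0.0378).

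The second question was whether the strands followed the molting cycle, which lasts about 7 h at this temperature. The guide showed no detectable rhythm, and the passenger did. The amplitude, defined as the height of a peak above the fitted line, was 0.03 ± 0.03 log2 units for miR-57-5p (adjusted p = 0.702), and only 18 of the 272 strands had a smaller one. For miR-57-3p it was 0.51 ± 0.07 log2 units (adjusted p = 5.1e-05), so that peaks stood 2.02-fold above troughs. Its fitted peak came 6.01 ± 0.16 h after each multiple of 7 h, that is close to 13 h, 20 h, 27 h and 34 h. Those were also the 4 hours within the window at which the measured level exceeded both neighbours on either side.

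**Figure D3:**
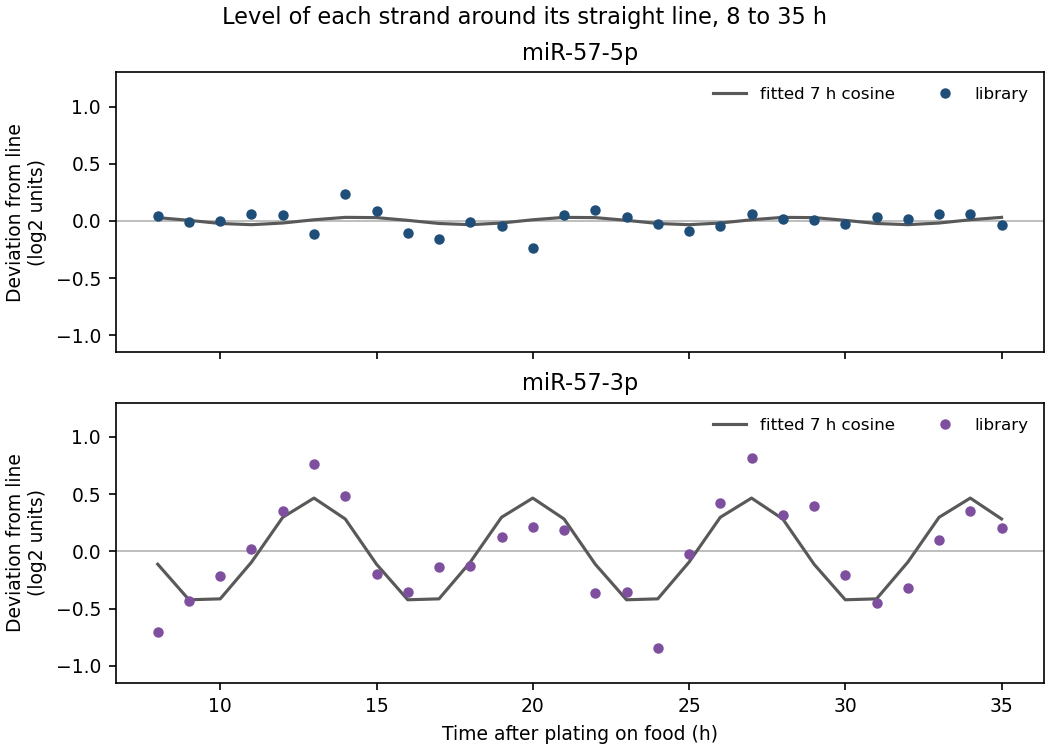
Deviation of miR-57-5p (upper panel) and miR-57-3p (lower panel) from a straight line, in log2 units of normalised count + 8 (y axis), against hours after plating (x axis), with 1 point per library and the least-squares 7 h cosine as a line. Points of miR-57-5p lie between -0.24 (20 h) and 0.23 (14 h), while those of miR-57-3p are at 0.76, 0.22, 0.81 and 0.35 at 13 h, 20 h, 27 h and 34 h.

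A rhythm was called at an adjusted p under 0.05 with an amplitude of at least 0.5 log2 units, which 14.3% of the 272 strands met. The passenger met it narrowly, and 45 strands had a larger amplitude. With the library of 13, 14, 24, 27, 31 or 32 h left out, its amplitude was 0.47, 0.49, 0.47, 0.47, 0.50 and 0.50, under the minimum, with adjusted p from 6.8e-05 to 0.000269. With autocorrelated residuals it was 0.44 (adjusted p = 0.00175). The scatter of miR-57-3p around its fit had a standard deviation of 0.25 log2 units, where counting error alone at 45 to 232 counts would give about 0.15. The correlation of residuals at a lag of 1 h was 0.29 for miR-57-3p and 0.00767 for miR-57-5p, with a median of 0.38 over all strands, and the fits treat the libraries as independent. For miR-57-5p the scatter was 0.09 log2 units, against a median of 0.31 over all strands.

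**Figure D4:**
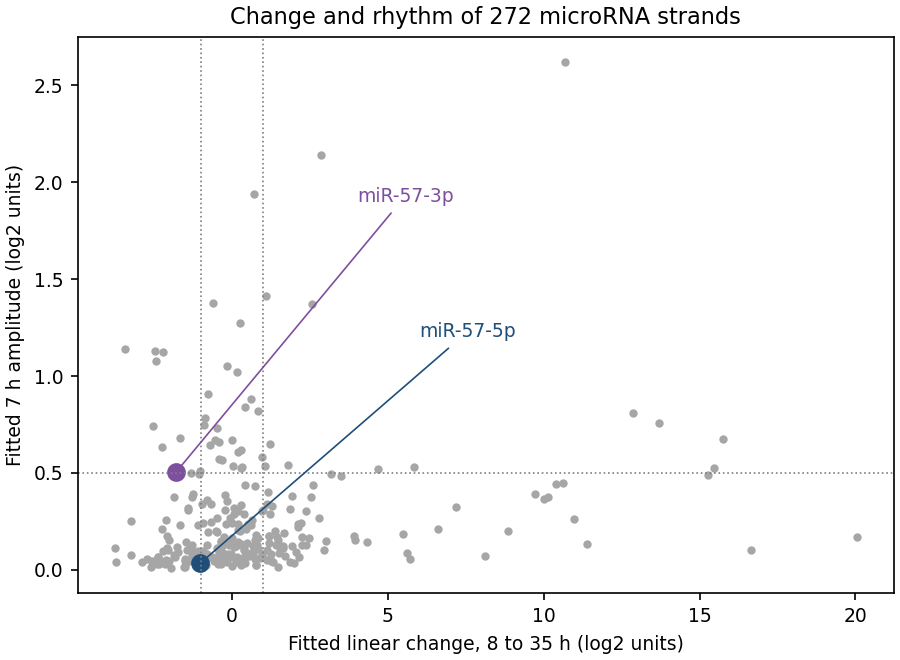
Fitted amplitude of the 7 h rhythm (y axis, log2 units) against the fitted linear change from 8 h to 35 h (x axis, log2 units) for the 272 tested strands, 1 point each, with dotted lines at the minimum amplitude of 0.5 and the minimum change of 1 in either direction. The strands of miR-57 are labelled, miR-57-5p at a change of -1.03 and an amplitude of 0.03, and miR-57-3p at -1.79 and 0.51.

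The third question was how the strands of the hairpin related to each other, a measure that is free of the scaling of libraries. The guide exceeded the passenger more than in any of the other 101 hairpins with both strands tested, by 9084-fold in mean normalised count against a median of 22.1-fold. The filter on low counts removes hairpins with a rarer passenger. Among the 188 hairpins with any count, 14 others had a pooled ratio at least as high as that of mir-57 (9101), and 10 of those had no passenger count at all.

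The ratio varied with the hour. In the larval cycles it was lowest at 13 h, with 4337 counts of miR-57-5p per count of miR-57-3p (exact 95% binomial interval 3814 to 4954), and at 20 h and 27 h it had further minima, of 6708 and 6047. High ratios were found in the libraries of 8 h (12971), 24 h (19176; 14331 to 26290) and 31 h (17116; 13240 to 22540). Other turns were weaker. The dip at 34 h reached only 9812 (7828 to 12475), above the ratios of 28 h (8641) and 29 h (8242). Between the dips of 13 h and 20 h the ratio rose to only 10468 (8606 to 12865), at 16 h. The 3p-to-5p ratio had an amplitude of 0.50 ± 0.09 log2 units over 8 h to 35 h (adjusted p = 0.000229 over 102 hairpins in edgeR), which compares the rhythms of the strands within each library. The adjusted p did not pass at a period of 6.5 h (0.32, adjusted p = 0.114), with even hours alone (0.51, 0.0659) or with odd hours alone (0.50, 0.105). The main amplitude of 0.499 was just under the minimum of 0.5, which 19.6% of the hairpins met with an adjusted p under 0.05. It reached the minimum, with 0.50 to 0.53, when the library of 10, 12, 16, 17, 19, 20, 21, 23, 25, 29, 30, 33, 34 or 35 h was left out.

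**Figure D5:**
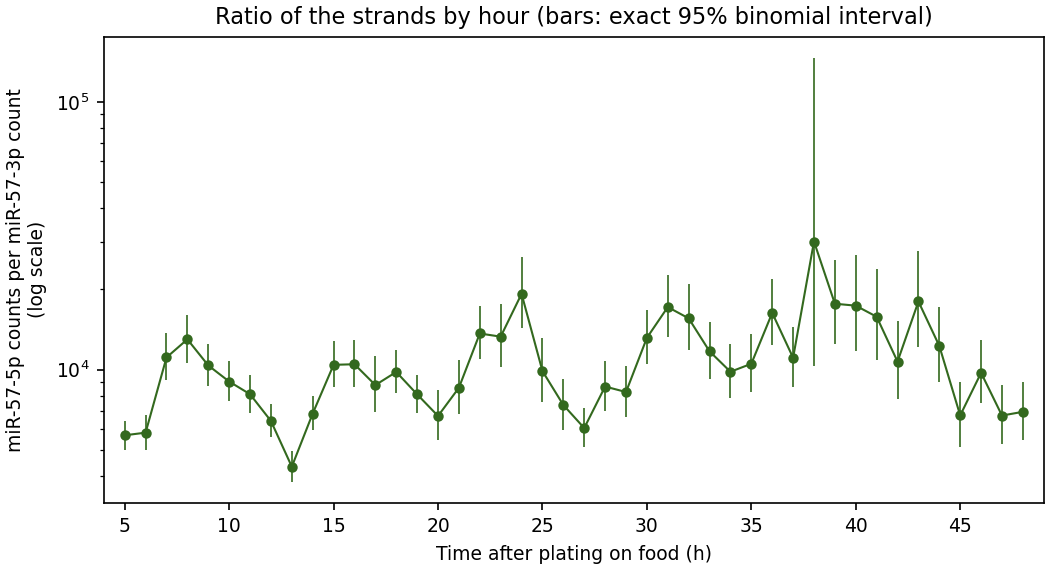
Counts of miR-57-5p per count of miR-57-3p (y axis, log scale) against hours after plating on food (x axis), 1 library per hour, with bars for the exact 95% binomial interval. Dips at 13 h (4337), 20 h (6708) and 27 h (6047) and a shallower one at 34 h (9812) are visible. The widest interval belongs to the shallow library of 38 h.

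Pooled over blocks of hours, the ratio climbed up to the block of 36 h to 42 h and was lower again after it. It was 6732 (exact 95% interval 6181 to 7345) from 5 h to 7 h, 7582 (7150 to 8047) from 8 h to 14 h and 8996 (8354 to 9700) from 15 h to 21 h. It was then 9921 (9125 to 10805), 11893 (10872 to 13036) and 14455 (12731 to 16483) in the blocks that started at 22 h, 29 h and 36 h. From 43 h to 48 h it was 8976 (8023 to 10075). These intervals cover the counting error of summed counts and leave out the scatter between hours. Hourly ratios ran from 4337 to 12971 within 8 h to 14 h and from 6734 to 17956 within 43 h to 48 h. Over 8 h to 35 h the passenger changed by -0.76 ± 0.20 log2 units relative to the guide (adjusted p = 0.00369), less than the minimum of 1 that 15.7% of the hairpins met in this direction and 27.5% in either. The adjusted p did not pass over 8 h to 28 h (-0.50, adjusted p = 0.0815), at a period of 6.5 h (-0.60, 0.0697), with even hours (-0.70, 0.163) or with odd hours (-0.83, 0.0800).

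In the last hours the strands parted. From 36 h to 48 h the fitted change was -0.54 ± 0.15 log2 units for miR-57-5p (adjusted p = 0.00441) and 0.71 ± 0.33 for miR-57-3p (adjusted p = 0.0718). Neither met both limits in edgeR, while 32.7% of the strands did, in 1 direction or the other. The median of all strands moved by -0.51, so relative to it miR-57-5p changed by -0.03 and miR-57-3p by 1.21. Without 37 h the change of miR-57-3p was 1.10 (adjusted p = 0.00663). With TMM factors the changes were -0.12 (adjusted p = 0.484) and 1.13 (adjusted p = 0.0101), with DESeq2 size factors -0.22 (0.130) and 1.01 (0.0190), and the median of all strands was -0.08 and -0.18.

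The difference between the strands does not depend on that scaling. The 3p-to-5p ratio rose by 1.29 ± 0.33 log2 units from 36 h to 48 h, or 2.44-fold (adjusted p = 0.00569 in edgeR). The ratio over these hours was tested after the data had been seen. Such a rise was called in 13.7% of the hairpins. Without each library in turn the change ranged from 1.11 to 1.62, with adjusted p of at most 0.0243.

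The guides of the miR-35 family, known for roles in embryos and the germ line, took a summed share of 0.490% at 36 h and 13.2% at 48 h. All 8 rose in this window with total-count scaling, TMM factors and DESeq2 size factors. With total-count scaling, 32.7% of all strands were called in either direction. The level of miR-57-5p was therefore also computed without them. With these 8 guides left out of the library totals, the share of miR-57-5p was 5.99% at 36 h and 4.78% at 48 h. Its fitted change was then -0.32 (adjusted p = 0.0680 in edgeR), while the median of all strands was -0.29.

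At the start of the time course, from 5 h to 10 h, neither strand passed. The change was -0.08 ± 0.17 log2 units for miR-57-5p (adjusted p = 0.815) and -0.94 ± 0.38 for miR-57-3p (adjusted p = 0.185), while 9.96% of strands were called. Without 5 h the first of these was 0.15. With 6 libraries in this fit, leaving out single hours moved the value of miR-57-3p between -1.19 and -0.35. Both strands were at their highest at 5 h.

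Other abundant and tissue-associated strands gave the setting for the guide. Of the 5 most abundant strands, miR-57-5p and miR-228-5p fell from 8 h to 35 h by the limits above. Of all 272 strands, 25.0% fell by these limits. The change of miR-72-5p (-0.93 ± 0.04) had an adjusted p of 2.0e-17 and stayed under the minimum, as did that of miR-58a-3p (-0.46 ± 0.09). For miR-82-3p, total-count scaling gave 0.88 ± 0.12, under the minimum, whereas under TMM factors it was called a rise. The neuronal strands lsy-6-3p, miR-124-3p and miR-791-5p all fell, with a median change of -1.54 log2 units (2 of 3 with TMM factors), and the muscle strand miR-1-3p was at 0.27 ± 0.10 and not called. Of the 6 guides of the miR-51 family, which has essential roles in the embryo, 1 fell (miR-52-5p, -1.21 ± 0.18), and the median was -0.32. This count was not above the share of all strands (25.0%). From 36 h to 48 h, 3 guides of that family fell (0 with TMM factors). In that window 32.7% of all strands were called, in 1 direction or the other. None of the abundant, neuronal, muscle or miR-51 family strands had a rhythm called in edgeR, where 39 of the 272 strands were called and 82 had an unadjusted p under 0.05. Of the 8 miR-35 family guides, all were called rhythmic (7 with TMM factors) and 2 fell from 8 h to 35 h. The latter was the share found among all strands (25.0%).

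The strands whose course was most like that of miR-57-5p, by Pearson's r over the 44 libraries on log2 levels, were lsy-6-3p (r = 0.970), miR-793 (0.970), miR-242 (0.958), miR-232-3p (0.956) and miR-251 (0.954), out of 204 candidates. The libraries share their totals and neighbouring hours, so these values describe a common downward course. The best known of them, lsy-6, sets the left-right difference between a pair of taste neurons. All 5 fell from 8 h to 35 h, with changes from -1.14 (miR-251) to -2.11 log2 units (miR-793), and none was called rhythmic in edgeR. They were picked by likeness to a falling guide without a detectable rhythm, so these calls follow largely from that choice. Of all 272 strands, 25.0% fell and 14.3% were called rhythmic. In level miR-57-5p stood far above them, with a mean of 812956 normalised counts, while the highest of the 5, miR-793, had 11627. Among these 5, the hourly courses closest to that of miR-57-5p were those of miR-242 and miR-251. Their centred log2 levels differed from those of miR-57-5p by a root mean square of 0.17 and 0.18.

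For the passenger the likeness was lower. Candidates needed a mean of at least 100 normalised counts, a floor that miR-57-3p itself (89.5) does not reach, so rarer strands were not compared. The highest r values to miR-57-3p were 0.870 for miR-72-5p, 0.865 for miR-231-3p, 0.861 for miR-1018, 0.844 for miR-245-3p and 0.843 for miR-2-5p, among 205 candidates. Their amplitudes ranged from 0.02 (miR-2-5p) to 0.06 (miR-245-3p) log2 units, and none was called rhythmic in edgeR. The r values rest on the whole course over 44 libraries and not on the 7 h wave alone. They do not show whether other strands share the rhythm of the passenger, and 39 of the 272 strands were called rhythmic. Their changes from 8 h to 35 h were -0.93, -2.35, -2.89, -1.52 and -1.52 log2 units in the same order, against -1.79 for miR-57-3p, and that of miR-72-5p was under the minimum. The root mean square difference to miR-57-3p ranged from 0.43 (miR-245-3p) to 0.61 log2 units (miR-1018).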

How the data were processed

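Small RNA was sequenced by the authors from 44 samples of N2 worms with an Illumina TruSeq kit. Per the published methods, adapters were trimmed and the authors aligned reads with Bowtie through QuasR to ce10 (tool versions are not given in the sources used here) and deposited raw counts per mature strand of miRBase, counting same-strand reads that started near the annotated 5' end. The deposited log2 values, made by the authors after scaling each library to the mean total and adding 8, differed from the counts only by rounding and were not used for tests.

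Tests used R 4.3.3 with edgeR 4.0.16 (quasi-likelihood, total-count scaling, Benjamini-Hochberg over all 272 strands, or 102 hairpins for ratios with the library as a factor). The strand ratio used columns for both strands of each library. Amplitude errors neglect the covariance of cosine and sine. The model for 8 h to 35 h had 24 residual degrees of freedom. Standard errors are the estimate over the root of F. Blocks were fitted with the cosine and sine over 35 libraries. Alternatives used limma 3.58.1, DESeq2 1.42.0 and nlme 3.1.168, while description and plots used pandas 2.3.3, matplotlib 3.10.9, SciPy 1.17.1 and NumPy 2.4.6 under Python 3.11.15. Scripts were tested on simulated counts.

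The members and lists were chosen with earlier results of these data known. Named strands were the miR-57 rows, the miR-51 family guides, the 5 most abundant strands, tissue lists and the 5 strands most like each miR-57 strand among those with at least 100 normalised counts, and the genes next to mir-57. The strand ratio after 35 h was added after the data had been seen. The 165 strands under 10 counts on average were not tested. Sequences, and therefore seed relatives, were not analysed here.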

Additional observations from a re-analysis of the deposited data

How the results depend on the processing

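The change of miR-57-3p from 8 h to 35 h kept its call under all 16 alternatives (-2.28 to -1.26 log2 units) and without any single library (-1.88 to -1.70). The absence of a call for the rhythm of miR-57-5p was also kept (amplitude 0.02 to 0.07). The rhythm of miR-57-3p missed a limit with limma and 8 added (0.47), at periods of 6.5 h (0.35, adjusted p = 0.0656) and 8 h (0.47), over 15 h to 35 h (0.47), with even hours (0.51, adjusted p = 0.0544) and with autocorrelated residuals (0.44). It ranged from 0.47 to 0.53 without single libraries. The change of miR-57-5p from 8 h to 35 h missed the minimum with TMM factors (-0.85), over the shorter windows of 8 h to 28 h (-0.80) and 15 h to 35 h (-0.67) and with odd hours (-0.95), and ranged from -1.05 to -0.97 without single libraries. From 5 h to 10 h it ranged from -0.21 to 0.15 without single libraries. From 36 h to 48 h the change of miR-57-3p passed with TMM factors (1.13) and DESeq2 size factors (1.01), and ranged from 0.51 to 1.10 without single libraries.

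For the step from 15 to 21 h to 22 to 28 h, miR-57-5p gave -0.17 with TMM factors, and miR-57-3p passed with DESeq2 size factors (-0.42) and without the 5 most abundant strands in the totals (-0.52), with -0.49 to -0.30 without single libraries. For the step to 29 to 35 h, miR-57-3p did not pass without a filter on low counts (-0.47, adjusted p = 0.0510) or with the block factor alone (-0.49, adjusted p = 0.0576), with -0.59 to -0.37 without single libraries. For the step to 36 to 42 h, miR-57-5p gave -0.17 with TMM factors. The rhythm of the strand ratio passed both limits at a period of 7.5 h (0.52) and over 8 h to 28 h (0.56), lost the adjusted p at 6.5 h (0.32) and with even or odd hours, and ranged from 0.45 to 0.53 without single libraries. The change of the ratio lost the adjusted p under 4 of 8 alternatives (-0.50 to -0.83). Counts of rhythmic strands were 21 at 6.5 h, 21 at 8 h, 5 from even and 8 from odd hours alone against 39, and those of rhythmic ratios 12, 12 and 6 (8 h, even and odd hours) against 20. Changing ratios numbered 18 with odd hours against 28, and changing strands 77 with autocorrelated residuals against 144. From 5 h to 10 h between 13 and 30 strands were called without single libraries, against 27. The causes were not tested. Depth limits the passenger, which had 3 counts at 38 h and 45 to 232 from 8 h to 35 h. No paired analysis was possible because each hour had 1 library and no replicate number links hours, while the strand ratio compares strands within libraries.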
